A study of Mus musculus with 31 samples.

Results

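The Agilent mouse array used here carries probes that are named by a genomic position and a strand (chromosome, start, end, then F for the forward or R for the reverse strand) in place of a gene symbol. They were placed on the array for long intergenic noncoding RNAs, transcripts from stretches between protein-coding genes. Every non-control probe with such a name was taken, which gave 4449 probes, and 2585 of them were among the 36059 probes kept for the fit. The other 1864 did not pass the filter on dim spots. Of the 2585, 1783 passed on at least 26 arrays, while 802 met only the rule of 6 or more arrays of any 1 group, which several groups could meet. The conditions of that filter include found and positive-and-significant marks, so a probe of the second kind may be well above background in every group. Counts over the 2585 include these 802 and are given as a description, with those over the 1783 beside the main counts.

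The livers came from 2 lines of male C57BL6/J mice fasted for 24 h and then refed for 18 h with food and 20% glucose in the water. ChREBPbeta_KO mice carry a CRISPR deletion of exon 1b of Mlxipl and lack the β isoform of ChREBP, a transcription factor that responds to glucose. ChREBPtotal_KO mice are Mlxipl-null and lack the α and β isoforms. Both deletions are present in the whole body, each line has wild-type littermates (ChREBPbeta_WT, ChREBPtotal_WT), and each array is 1 mouse, with 7 ChREBPtotal_KO livers (replicate 3 was not analysed here) and 8 livers in every other group. Age was not given, and 2 exon 1b lines were derived per strain without a statement of which was used here.

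Many long intergenic RNAs are made at low level and in few cell types, and some act on the genes beside them. The name of a probe gives a region in the mm9 build, not a known transcript. The 2585 probes stand for 2419 names and 2031 regions: 2273 names had 1 probe, 127 had 2, 18 had 3 and 1 had 4. Forward names numbered 1268 and reverse names 1317, over 20 chromosomes. A probe position was given for 2540 of them, and each lay inside the named region on the named strand. Region length had a median of 11590 bases (62 to 538251). Probes of the same region share a target and are not replicates.

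Mlxipl was measured first, with 3 probes and a two-sided exact permutation test over the arrays, adjusted over 6 comparisons. Probe A_55_P2119957 read 13.89, 14.11 and 14.30 in ChREBPtotal_KO livers (lowest, median and highest log2 signal, in this order throughout) and 15.14, 15.25 and 15.48 in ChREBPtotal_WT livers. These groups did not overlap. Mlxipl on this probe fell by 1.16 (exact adjusted p = 4.7e-04). In the other line the same Mlxipl probe read 14.40, 14.64 and 14.84 in ChREBPbeta_KO livers and 14.88, 15.06 and 15.33 in ChREBPbeta_WT livers. Here too every knockout lay under every wild type, and the difference was −0.45 (exact adjusted p = 4.7e-04). Probe A_55_P2728555 read 10.06, 10.48 and 10.86 against 10.62, 11.03 and 11.47 in the total line, with overlap (−0.59, exact adjusted p = 0.0028). In the β line it read 10.30, 10.52 and 10.88 against 10.49, 10.96 and 11.70, also with overlap (−0.46, exact adjusted p = 0.0215). The last Mlxipl probe, A_55_P2045158, was flat in both lines (−0.05 and −0.06, exact adjusted p = 0.369 for each). Where the probes lie relative to the deleted exons is not known.

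Log2 signal of the 2585 probes had quartiles of 5.29, 6.12 and 7.68 (4.61 to 17.61), against 5.86, 7.65 and 10.17 for all other kept probes. Signals of different probes depend on probe sequence as well as on RNA amount and were not ranked as RNA amounts. By mean log2 signal, 311 probes (12.0%) lay under 5, 903 (34.9%) from 5 to 6, 813 (31.5%) from 6 to 8, 319 (12.3%) from 8 to 10 and 239 (9.25%) at 10 or more. Median GC content was 45% against 43.3% elsewhere. The 31 probes under 35% GC had a median signal of 5.48, the 903 from 35 to 45% had 5.98, the 1124 from 45 to 55% had 6.05 and the 527 above had 6.60. The median of the position-named probes differed little between groups: 6.12 in ChREBPtotal_KO, ChREBPtotal_WT and ChREBPbeta_KO livers and 6.13 in ChREBPbeta_WT livers.

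The number of position-named probes well above background on an array (by the scanner software) ran from 2323 to 2947, with group medians of 2712 in ChREBPtotal_KO, 2792 in ChREBPtotal_WT, 2799 in ChREBPbeta_KO and 2763.5 in ChREBPbeta_WT livers. The lowest number came from ChREBPtotal_KO replicate 4, whose local background was 33 against 15 to 21 on the other arrays. In ChREBPtotal_WT replicates 2, 7 and 8, most kept markers of exocrine pancreas stood apart: Cela3b, an elastase gene, read 8.49 to 10.41 there, 5.09 to 5.58 in the other ChREBPtotal_WT livers and up to 5.50 in the other groups. Counts are therefore also given without these 3 livers, a choice made after the values were seen.

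Of the 5 probes of highest signal, 2 were called in ChREBPtotal_KO livers. chr1:193875525-193978800_R read 17.44, 17.62 and 17.94 in ChREBPtotal_KO livers and 17.57, 18.05 and 18.21 in ChREBPtotal_WT livers, with wide overlap and a difference of −0.35 ± 0.11 (adjusted p = 0.0171). Differences are log2 with the standard error of the limma fit, and p is adjusted over all 36059 probes. The call was lost among the arrays of scan day 1 (−0.19, adjusted p = 0.48) and in a model with a term for each slide (−0.24, adjusted p = 0.22), while among those of scan day 2 it held (−0.52, adjusted p = 0.0212). Against ChREBPbeta_WT livers (17.18, 17.57 and 17.89), the wild types of the total line were higher by 0.46 (adjusted p = 0.00318). The nearest named genes, read here and below on the kept probe of highest signal unless stated, were Rcor3 (a corepressor subunit, 25 kb; −0.41 in ChREBPtotal_KO livers, adjusted p = 0.00192, with 1 of its 3 probes flat) and Traf5 (an adaptor of tumor necrosis factor receptors, 76 kb; −0.52, adjusted p = 1.8e-08). For chr17:17481706-17482457_R, ChREBPtotal_KO livers read 16.70, 16.75 and 16.87 and ChREBPtotal_WT livers 16.46, 16.62 and 16.64. All 7 knockouts were above all 8 wild types, by 0.18 ± 0.0464 (adjusted p = 0.00362), but no call was made with 75th percentile scaling (+0.12 on processed and +0.11 on median signal) or within scan day 1 (+0.20) or 2 (+0.17). The probes chr14:78924115-78938125_F (+0.05), chr12:73838608-73862621_R (+0.06) and chr6:83368261-83407280_F (+0.12, adjusted p = 0.206) were not called, the last being called (+0.18, adjusted p = 0.0405) without ChREBPtotal_WT replicate 6.

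In ChREBPtotal_KO livers, 235 of the 2585 probes were higher (9.09%; 14.5% of all 36059 probes) and 206 lower (7.97%; 14.6% of all probes) at an adjusted p under 0.05. Both shares lay under those of the whole array. Of the 1783 probes that passed on at least 26 arrays 170 were higher and 147 lower, against 4053 and 4065 of the 25526 other probes that passed in this way. Higher probes made up 53.3% of those called, and 65.7% (259 higher, 135 lower) when each array's median signal was scaled to its 75th percentile. Over all probes the counts were 5229 higher and 5248 lower, and 5061 and 4693 with this scaling. The scaling moved the median difference of all probes from 0.00825 to 0.0382 and that of the position-named probes from 0.0104 to 0.0658. A change of at least 1.5-fold was called for 32 higher (2.71% of all probes) and 38 lower probes (3.36% of all probes), so that here lower probes were the more numerous. Without the filter on dim spots the counts were 207 and 208, against 4773 and 5135 over all 56605 probes then tested. Groups without overlap were found for 33 higher (3.23% of all probes) and 36 lower called probes (4.1% of all probes). The 15 slides and 2 scan days each held more than 1 group, save 2 slides. With a term for scan day 241 were higher and 213 lower, with a term for slide 174 and 163, among the arrays of scan day 1 alone 121 and 118, and of scan day 2 alone 89 and 83. Over all 36059 probes the counts in these settings were 5307 and 5328, 4158 and 4141, 2752 and 3054, and 2164 and 2598. Without ChREBPtotal_WT replicates 2, 7 and 8 the counts were 174 higher and 186 lower, so that lower probes were the more numerous. Over all probes 4494 were then higher and 4713 lower. In that setting the 16 probes of largest difference named below read 0.61 to 0.89 and −1.91 to −1.39. These 16 include probes given below with no test, so the ranges are a description. The median absolute log2 difference was 0.0934 against 0.130 for the other probes, at standard errors with medians of 0.0815 and 0.0816.

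The share called was 8.04% under a log2 signal of 5, and 13.5%, 20.1%, 24.1% and 22.6% in the bands above. For the other kept probes these shares were 10.9%, 17.5%, 29.4%, 37.1% and 39.9%, so the gap was present in each band. By GC content the share called was 19.4%, 20.8%, 16.5% and 11.8% from the lowest to the highest band. By chromosome it ran from 11.8% (chromosome 16, 85 probes) to 22.9% (chromosome 6, 153 probes), against 27.1% to 33.1% for the other probes.

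The largest rise without overlap of the groups was seen for chr14:62294849-62301165_R, 44 kb from Dleu2, a noncoding host of microRNAs, on the same strand. ChREBPtotal_KO livers read 9.37, 9.61 and 9.74 and ChREBPtotal_WT livers 8.41, 8.52 and 9.17. All 7 knockouts exceeded all 8 wild types, by 0.97 ± 0.1 (adjusted p = 1.0e-08). Both β groups lay near the knockouts, at 9.47, 9.64 and 9.87 in ChREBPbeta_KO and 9.14, 9.50 and 9.79 in ChREBPbeta_WT livers. The low group was thus ChREBPtotal_WT, which was under ChREBPbeta_WT by 0.86 (adjusted p = 5.1e-07). The neighboring chr14:62280837-62283960_R had the same order of groups: 8.84, 9.01 and 9.22 in ChREBPtotal_KO, 7.91, 8.17 and 8.61 in ChREBPtotal_WT and 8.51, 8.94 and 9.18 in ChREBPbeta_WT livers. No knockout overlapped its wild types, and the rise was +0.87 ± 0.11 (adjusted p = 3.9e-07). Of the 3 probes of Dleu2, the one of highest signal was not called (+0.30, adjusted p = 0.38) and the others rose by 0.46 (adjusted p = 2.7e-06) and 0.47 (adjusted p = 0.0318).

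Also on chromosome 14, chr14:55671783-55680316_R, lies 1.4 kb from Zfhx2 (a zinc finger homeobox factor) on its strand. It read 7.67, 8.06 and 8.36 in ChREBPtotal_KO and 6.78, 7.25 and 7.58 in ChREBPtotal_WT livers. The groups were apart by 0.79 ± 0.117 (adjusted p = 4.9e-06), with 7 of 7 knockouts above the highest wild type. A second probe of that strand, 48 bases away, rose by 0.42 (adjusted p = 4.5e-04) and the forward probe did not change (+0.03, adjusted p = 0.893). Zfhx2 read 10.17, 10.66 and 10.84 in ChREBPtotal_KO and 9.52, 9.89 and 10.25 in ChREBPtotal_WT livers. Its groups overlapped slightly and differed by 0.75 ± 0.107 (adjusted p = 2.7e-06).

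Within 154 kb of Rora, a nuclear receptor gene, and on its strand, chr9:68349343-68411643_F read 4.82, 5.49 and 5.78 in ChREBPtotal_KO and 4.35, 4.53 and 4.81 in ChREBPtotal_WT livers. It was well above background on all 7 knockout arrays, on 2 of 8 wild-type arrays and on none of the β line. It was thus kept through the group in which it was high, and the rise of 0.75, without overlap, is given with no test. A second probe of the name and strand rose by 0.23 (adjusted p = 0.042). The size of the first depended on background handling, from +0.31 with normexp correction to +2.21 on processed signal. Rora did not rise (−0.25, adjusted p = 0.057).

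chr6:35201798-35217831_R lies 0.31 kb from 1810058I24Rik on the other strand and 6.7 kb from Slc13a4, a sulfate transporter, on its own. ChREBPtotal_KO livers read 9.01, 9.54 and 9.66 and ChREBPtotal_WT livers 8.71, 8.80 and 8.92. No array of the groups crossed, and the rise was +0.66 ± 0.117 (adjusted p = 6.3e-05). Of the genes around it, 1810058I24Rik rose by 0.64 (adjusted p = 1.1e-06) and Slc13a4 by 0.78 (adjusted p = 0.0211), while Nup205, a nuclear pore protein gene 14 kb away, fell by 0.40 (adjusted p = 9.5e-05).

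On chromosome 5, chr5:137392195-137426421_F read 5.32, 5.42 and 5.87 in ChREBPtotal_KO and 4.64, 4.88 and 5.16 in ChREBPtotal_WT livers, of which 6 of 8 arrays were well above background. All 7 knockouts were higher, by 0.64 ± 0.0947 (adjusted p = 4.9e-06). The value was +1.51 on processed signal and +0.33 with normexp correction. Nearby names went both ways: chr5:137395007-137412976_F rose by 0.54 (adjusted p = 5.5e-04) and chr5:137411861-137413010_F fell by 0.82 (adjusted p = 6.8e-07). Ift22, an intraflagellar transport gene 18 kb away, rose by 0.20 (adjusted p = 0.00762) on 1 of 2 probes, and Fis1, a mitochondrial fission gene 32 kb away, did not change.

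chr17:56687541-56694616_R, 9.5 kb from Safb2, read 5.93, 6.19 and 7.09 in ChREBPtotal_KO and 5.43, 5.69 and 5.91 in ChREBPtotal_WT livers. The lowest knockout was just above the highest wild type, and the rise was +0.61 ± 0.109 (adjusted p = 6.2e-05), or +0.39 with normexp correction. Its forward partner, 140 bases away, rose as well (+0.46 ± 0.0878, adjusted p = 1.7e-04), and Safb2, a scaffold attachment factor gene, rose by 0.14 without a call (adjusted p = 0.053).

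The eighth, chr17:12965849-12968519_F, lies between probes of Airn, the imprinted antisense RNA of Igf2r, on the Airn strand. It read 5.66, 5.69 and 6.60 in ChREBPtotal_KO and 4.79, 5.35 and 5.66 in ChREBPtotal_WT livers. Knockouts began where wild types ended, and the difference was +0.59 ± 0.159 (adjusted p = 0.00511). It was not called within scan day 1 (+0.69, adjusted p = 0.0783) or 2 (+0.49, adjusted p = 0.112) and read +1.07 on processed signal and +0.36 with normexp correction. Airn read 10.26, 10.84 and 11.65 in ChREBPtotal_KO and 9.51, 9.78 and 10.20 in ChREBPtotal_WT livers (+1.05 ± 0.186, adjusted p = 6.4e-05), with all 7 knockouts above all wild types. Igf2r, the receptor for insulin-like growth factor 2 on the other strand, read 11.03, 11.13 and 11.21 and 10.52, 10.59 and 10.75 and rose by 0.51 ± 0.0524 (adjusted p = 7.7e-09), again without overlap. Over these 8 probes, less the probe near Rora given with no test, the rise was 0.52 to 1.08 with slide as a fixed block. It was 0.46 to 1.05 within scan day 1 and 0.49 to 0.88 within scan day 2.

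The largest fall without overlap of the groups was that of chr8:72663625-72673010_R. ChREBPtotal_KO livers read 9.04, 9.39 and 9.72 and ChREBPtotal_WT livers 9.81, 11.22 and 12.12. Every knockout was under every wild type, by −1.70 ± 0.251 (adjusted p = 4.7e-06). The medians of the β groups lay between, with 9.82, 10.44 and 11.12 in ChREBPbeta_KO and 9.89, 10.59 and 11.36 in ChREBPbeta_WT livers. Of its 2 forward partners, 1 rose by 0.20 (adjusted p = 0.00488) and 1 was not called (−0.11). A probe of 2310045N01Rik lies on the other strand of the same bases and went the other way (+0.64, adjusted p = 2.2e-06). Rfxank, a regulator of MHC class II genes 9.9 kb away on the strand of the falling probe, read 8.34, 8.84 and 9.06 in ChREBPtotal_KO and 9.24, 9.31 and 9.61 in ChREBPtotal_WT livers. Its groups did not overlap, and it fell by 0.62 (adjusted p = 3.2e-04). The sequences of the opposed pair are given since they read 47 shared bases on 2 strands (capitals mark the shared bases; chr8:72668910-72668969, minus strand, and chr8:72668482-72668967, plus strand, mm9).
chr8:72663625-72673010_R: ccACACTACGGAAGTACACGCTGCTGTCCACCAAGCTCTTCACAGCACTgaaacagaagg
2310045N01Rik: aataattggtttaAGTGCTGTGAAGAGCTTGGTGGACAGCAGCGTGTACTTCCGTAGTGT

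chr6:108556270-108573161_R was well above background on none of the 7 ChREBPtotal_KO arrays and was kept through the other groups. It read 4.55, 4.62 and 4.79 there and 5.59, 6.47 and 6.75 in ChREBPtotal_WT livers. The groups were far apart, by −1.67, given with no test since the probe was kept through groups in which it was high. In the β line the probe stayed detected, at 5.59, 5.84 and 6.14 in ChREBPbeta_KO and 5.78, 5.98 and 6.29 in ChREBPbeta_WT livers. The difference in the total line was −3.48 on processed signal and −0.91 with normexp correction. A second probe of the name, 1965 bases away, did not change (−0.13, adjusted p = 0.347). The genes on either side, both on the other strand, fell as well. Bhlhe40, a repressor tied to the circadian clock 56 kb away, read 9.47, 10.41 and 10.80 in ChREBPtotal_KO and 11.60, 12.47 and 12.98 in ChREBPtotal_WT livers (−2.08 ± 0.225, adjusted p = 2.4e-08). Itpr1, an intracellular calcium channel gene 59 kb away, read 11.06, 11.20 and 11.37 against 11.63, 11.75 and 12.27 (−0.69 ± 0.0975, adjusted p = 2.3e-06). Neither gene overlapped between groups.

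On the same strand of chromosome 5, 2 regions about 21 kb apart fell together. chr5:152006587-152008784_R read 8.31, 8.51 and 9.30 in ChREBPtotal_KO and 9.81, 10.25 and 10.60 in ChREBPtotal_WT livers. All knockouts were lower, by −1.61 ± 0.155 (adjusted p = 2.3e-09). For chr5:152029557-152030218_R the values were 5.77, 5.97 and 6.49 and 6.93, 7.31 and 7.78. They did not overlap either (−1.31 ± 0.143, adjusted p = 2.6e-08). In the β line the differences were −0.07 and −0.09, and ChREBPtotal_WT livers were above ChREBPbeta_WT livers by 0.61 and 0.38. The nearest named genes, 5430435K18Rik (55 and 32 kb) and Stard13 (a lipid-transfer domain protein gene, 133 and 156 kb), were not called.

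chr1:71939741-71947891_F lies 2.4 kb from Gm8883 on the same strand. It read 8.84, 9.11 and 9.45 in ChREBPtotal_KO and 10.21, 10.56 and 11.13 in ChREBPtotal_WT livers, without overlap (−1.48 ± 0.135, adjusted p = 8.6e-10). Gm8883 fell with it, from 7.40, 7.63 and 8.36 in ChREBPtotal_WT to 6.22, 6.77 and 6.88 in ChREBPtotal_KO livers (−1.03 ± 0.127, adjusted p = 2.2e-07).

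chr13:98513868-98517366_R read 5.996, 6.15 and 6.39 in ChREBPtotal_KO and 6.70, 7.76 and 8.16 in ChREBPtotal_WT livers. Again no arrays crossed, and the fall was −1.48 ± 0.185 (adjusted p = 3.1e-07). The adjoining 5330416C01Rik, 0.88 kb away, had no kept probe, and Arhgef28, a guanine nucleotide exchange factor gene 155 kb away, was flat on the probe of highest signal (−0.04) and rose on the other (+0.39, adjusted p = 0.0221).

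At chr14:26834450-26847000_R, ChREBPtotal_KO livers read 8.42, 8.52 and 9.02 and ChREBPtotal_WT livers 9.42, 10.01 and 10.64. The knockouts were all lower (−1.45 ± 0.197, adjusted p = 1.3e-06). A probe on the opposite strand that shares 38 bases with it, chr14:26835914-26845344_F, did not change (−0.05, adjusted p = 0.677), and Cphx1, a homeobox gene 67 kb away, rose by 0.70 (adjusted p = 3.4e-04). The pair is printed because only the reverse-strand probe of the shared bases fell (in capitals; chr14:26842200-26842259, minus strand, and chr14:26842178-26842237, plus strand, mm9).
chr14:26834450-26847000_R: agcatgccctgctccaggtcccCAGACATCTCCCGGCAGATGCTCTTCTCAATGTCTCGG
chr14:26835914-26845344_F: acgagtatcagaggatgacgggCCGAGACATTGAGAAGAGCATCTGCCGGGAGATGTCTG

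chr16:7947710-7948066_R, a region of 357 bases with no named gene nearer than Tmem114 at 462 kb, read 4.72, 4.87 and 5.10 in ChREBPtotal_KO and 5.98, 6.35 and 6.62 in ChREBPtotal_WT livers. The groups stood apart by −1.41 ± 0.12 (adjusted p = 3.0e-10). Both β groups lay under ChREBPtotal_WT, at 4.78, 5.32 and 5.74 in ChREBPbeta_KO and 4.70, 5.25 and 5.36 in ChREBPbeta_WT livers. The difference was −2.34 on processed signal and −0.72 with normexp correction. The probe between Bhlhe40 and Itpr1, given with no test, is left out of the ranges that follow. Over the other falls the difference was −1.56 to −1.33 with slide as a fixed block. It was −1.92 to −1.39 within scan day 1 and −1.51 to −1.08 within scan day 2. Fewer cells of a type and less RNA per cell cannot be told apart in these livers.

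Probes within 100 kb of known long noncoding RNAs were gathered after their values were seen. Of 35 listed RNAs with a position, 19 had such a neighbor, 50 probes in all, of which 15 were higher and 8 lower in ChREBPtotal_KO livers (14.5% and 14.6% of all probes). At the imprinted Meg3, Rian and Mirg locus 7 of 8 probes were higher and 0 lower. Of the 7, 3 met only the rule of 6 or more arrays of any 1 group. The count therefore includes probes that can be kept through the group in which they are high, and is given as a description. chr12:110894095-110899517_F, 1.8 kb from Rian, read 4.61, 5.21 and 5.49 in ChREBPtotal_KO and 4.25, 4.48 and 4.70 in ChREBPtotal_WT livers. It was well above background on 6 of 7 knockout arrays and on no array of any other group. Since it was kept through the group in which it was high, its rise of 0.63, with slight overlap, is given with no test. chr12:110944403-110988678_F, 3.8 kb from Mirg, read 5.38, 5.75 and 6.19 against 5.18, 5.35 and 5.60, also overlapping (+0.42, adjusted p = 0.00171). chr12:110842154-110883594_F, within Rian, rose by 0.37 (adjusted p = 0.00105). The named genes rose with them: Meg3, a maternally expressed noncoding RNA, by 2.26 (adjusted p = 1.3e-07), Mirg by 0.98 (adjusted p = 1.5e-05) and Rian, a host of small nucleolar RNAs, by 0.50 (adjusted p = 6.1e-05).

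Beside Dleu2, 3 of 4 probes were higher and 1 lower (14.5% and 14.6% of all probes). chr14:62254361-62301162_R rose by 0.81 (7.96, 8.33 and 8.83 against 6.99, 7.73 and 8.16; adjusted p = 1.6e-04), with overlap. chr14:62263564-62307496_R fell by 0.55 (adjusted p = 9.9e-05), from 9.09, 9.42 and 9.75 in ChREBPtotal_WT to 8.67, 8.86 and 9.19 in ChREBPtotal_KO livers, also with overlap. Near Neat1, the scaffold RNA of paraspeckles, chr19:5834117-5835940_R rose by 1.07 (adjusted p = 0.0105) and probe A_30_P01020769 of chr19:5771425-5848475_F fell by 1.76 (adjusted p = 0.00373). Both overlapped widely between groups, and Neat1 was not called (+0.32). Near Pvt1, a noncoding neighbor of Myc, chr15:62090565-62091770_F fell by 0.30 (adjusted p = 6.0e-04). Near Snhg18, a host of small nucleolar RNAs, chr15:32167516-32174417_R rose by 0.39 (adjusted p = 0.00232).

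In ChREBPbeta_KO livers no probe was called in the limma fit: 0 of 2585 higher (0% of all probes) and 0 lower (0.00277% of all probes). An unadjusted p under 0.05 was found for 121 (4.68%; 4.98% of all probes). The exact Mann-Whitney test also called 0 after adjustment, with 58 higher (2.93% of all probes) and 83 lower (3.2% of all probes) unadjusted, and 1 lower probe was called on processed signal. That probe, chr4:140841206-140841639_F, also had the smallest p in the limma fit, but it was kept through the wild types, in which it was high, and its values are given as a description. ChREBPbeta_KO livers read 4.33, 4.60 and 4.86, with 1 of 8 arrays well above background, and ChREBPbeta_WT livers 4.88, 5.18 and 5.37. All 8 knockouts were lower, by 0.57 without a call, and by 1.58 on processed signal or 0.28 with normexp correction. In the total line it fell as well, from 4.88, 5.25 and 5.91 in ChREBPtotal_WT to 4.53, 4.67 and 5.21 in ChREBPtotal_KO livers, with 2 knockout arrays well above background and with overlap (−0.60). Gm13056, 5.8 kb away, was not called in either line.

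The next 4 by p in the β line were not called either. chr14:103746051-103840199_F read 5.18, 5.78 and 5.94 in ChREBPbeta_KO and 4.96, 5.28 and 5.57 in ChREBPbeta_WT livers, with overlap (+0.41 ± 0.102, adjusted p = 0.671; +0.63 on processed signal, +0.19 with normexp correction). chr1:162965309-162970704_R, 1.4 kb from Gas5, a host of small nucleolar RNAs on the other strand, read 6.98, 7.14 and 7.26 against 7.16, 7.39 and 7.63, overlapping at the ends (−0.25 ± 0.0697, adjusted p = 0.8). It was lower in the total line too (−0.45 ± 0.0722, adjusted p = 1.8e-05), where all 7 knockouts (6.91, 7.11 and 7.25) lay under all 8 wild types (7.31, 7.511 and 7.75), while Gas5 was flat (+0.03). chr18:24239025-24246898_F read 7.87, 7.96 and 8.18 against 8.13, 8.25 and 8.50, with little overlap (−0.27 ± 0.0782, adjusted p = 0.8). chr3:126989696-127112471_R read 4.58, 4.71 and 4.86 against 4.72, 4.90 and 5.01, overlapping (−0.18 ± 0.054, adjusted p = 0.816; −0.43 on processed signal, −0.07 with normexp correction). A second probe of this name and strand, 2326 bases away, went the other way in the β line without a call (+0.09 ± 0.1245). In the total line that second probe fell by 0.60 (adjusted p = 5.8e-04).

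The effect of the total knockout was compared with that of the β knockout as a difference of 2 differences, which shares samples with both. It was called higher for 114 probes (4.41%; 7.02% of all probes) and lower for 99 (3.83%; 8.08% of all probes), or 85 and 70 of the 1783. Of the 25526 other probes that passed on at least 26 arrays 1983 were higher and 2301 lower. At 1.5-fold or more, 30 were higher (2.1% of all probes) and 40 lower (3.23% of all probes). With a term for scan day they were 112 and 99, with a term for slide 80 and 75, then 23 and 29 within scan day 1, and 29 and 35 within scan day 2, and 95 and 95 without ChREBPtotal_WT replicates 2, 7 and 8. Over all probes these settings gave 2585 and 2952, 1826 and 2118, 588 and 932, 751 and 1239, and 2398 and 2816. chr11:96111499-96126224_R, in the Hoxb cluster 21 kb from Hoxb9, read 8.69, 9.75 and 9.94 in ChREBPtotal_KO and 7.29, 8.35 and 8.72 in ChREBPtotal_WT livers. In the β line it read 8.27, 8.94 and 9.09 in ChREBPbeta_KO and 8.78, 8.96 and 9.37 in ChREBPbeta_WT livers. Only the total line changed, with 1 knockout array among the wild types, and the difference was +1.53 ± 0.244 (adjusted p = 4.2e-05). Hoxb9 and Hoxb13, homeobox genes, had no kept probe, and the forward probe 16 bases away did not change (+0.02). chr3:95502970-95503399_R read 6.997, 7.97 and 8.19 in ChREBPtotal_KO and 5.42, 6.60 and 7.10 in ChREBPtotal_WT livers, with overlap. In the β line its values were 6.70, 7.15 and 7.36 in ChREBPbeta_KO and 7.09, 7.24 and 7.59 in ChREBPbeta_WT livers. The same 3 arrays were lowest in their groups as for chr11:96111499-96126224_R (ChREBPtotal_KO replicate 7, ChREBPtotal_WT replicate 6, ChREBPbeta_KO replicate 5), and the longest run of bases the probes share is 9. The difference was +1.48 ± 0.237 (adjusted p = 4.9e-05). Around it Adamtsl4, an extracellular matrix protein gene 22 kb away, rose by 0.71 (adjusted p = 1.2e-05) and Mcl1, an anti-apoptotic gene 36 kb away, by 0.38 (adjusted p = 1.3e-04) in ChREBPtotal_KO livers.

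chr1:85323303-85337483_F read 9.26, 9.96 and 10.16 in ChREBPtotal_KO and 8.18, 8.63 and 9.42 in ChREBPtotal_WT livers, with overlap, against 8.30, 9.04 and 9.43 in ChREBPbeta_KO and 8.73, 8.94 and 9.51 in ChREBPbeta_WT livers. Its difference of +1.20 ± 0.246 (adjusted p = 8.7e-04) was not called within scan day 2 (+0.88, adjusted p = 0.179). For chr19:57426515-57435165_R, ChREBPtotal_KO livers read 7.20, 7.49 and 8.24 and ChREBPtotal_WT livers 6.01, 6.51 and 7.40. These overlapped, and the difference of effects was +0.99 ± 0.268 (adjusted p = 0.0103), but +1.69 within scan day 1 and +0.24 (adjusted p = 0.796) within scan day 2. chr14:73746324-73749119_R, 16 kb from Itm2b, read 6.91, 7.13 and 7.90 against 6.08, 6.45 and 6.995 in the total line and 6.01, 6.64 and 6.99 against 6.53, 6.75 and 7.17 in the β line. The groups overlapped in both lines, and the difference of effects was +0.98 ± 0.214 (adjusted p = 0.00169), without a call within scan day 1 (+1.001, adjusted p = 0.0518). Itm2b, an integral membrane protein gene, rose by 0.28 in ChREBPtotal_KO livers (adjusted p = 5.5e-04), and Rcbtb2, 139 kb away, fell by 1.03 (adjusted p = 9.5e-05), with 2 of its 5 probes not called.

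Of the 5 largest negative differences, 4 belonged to probes already named: chr8:72663625-72673010_R (−1.63, adjusted p = 0.00144; not called within scan day 1, −1.40), chr14:26834450-26847000_R (−1.62, adjusted p = 9.8e-05; not called within scan day 1, −1.34), chr5:152006587-152008784_R (−1.54, adjusted p = 6.6e-06) and chr16:7947710-7948066_R (−1.53, adjusted p = 1.7e-07; −2.49 on processed signal, −0.78 with normexp correction). The fifth, chr7:16584852-16657252_R, near Gltscr1, read 6.82, 7.02 and 7.33 in ChREBPtotal_KO and 7.20, 8.59 and 8.93 in ChREBPtotal_WT livers, where 1 wild type lay among the knockouts. In the β line it read 7.74, 8.18 and 9.07 against 7.53, 8.07 and 8.50. The difference was −1.63 ± 0.286 (adjusted p = 1.5e-04), and −1.37 without a call within scan day 2. All 10 were called with a term for slide, at 0.85 to 1.42 for the positive and −1.67 to −1.41 for the negative ones.

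The wild types of the 2 lines also differed. ChREBPtotal_WT livers were higher than ChREBPbeta_WT livers for 125 probes (4.84%; 8.12% of all probes) and lower for 251 (9.71%; 8.92% of all probes), or 91 and 170 of the 1783. Of the 25526 other probes that passed on at least 26 arrays 2219 were higher and 2389 lower. With a term for scan day the counts were 133 and 255, with a term for slide 26 and 123, then 39 and 96 within scan day 1, and 31 and 92 within scan day 2. They were 98 and 185 without ChREBPtotal_WT replicates 2, 7 and 8, and the exact Mann-Whitney test called 65 higher (4.65% of all probes) and 186 lower (5.71% of all probes). Over all probes, scan day gave 3092 and 3334 and slide 829 and 1269, so the drop with slide was found over the whole array. Within scan days 1 and 2 all probes gave 1034 and 1256, and 589 and 925. Without the 3 replicates they gave 2093 and 2414. At 1.5-fold or more, 19 were higher (0.948% of all probes) and 40 lower (1.59% of all probes). Without overlap of the groups, 8 were higher (0.715% of all probes) and 47 lower (1.15% of all probes). The share called was 7.40%, 12.5%, 19.2%, 17.6% and 11.7% from the dimmest to the brightest band, against 8.77%, 11.3%, 18.3%, 21.5% and 19.7% for the other probes. The offset uses the same wild-type livers as the genotype effects, so its values are set beside them and not counted with them. Line and anything else that differed between the litters cannot be told apart.

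The largest offset without overlap of the groups was that of chr19:57426515-57435165_R, 36 kb from B230217O12Rik on the same strand. ChREBPtotal_WT livers read 6.01, 6.51 and 7.40 and ChREBPbeta_WT livers 7.43, 8.53 and 8.84. All 8 of the first were under all 8 of the second, by −1.83 ± 0.186 (adjusted p = 1.6e-07), while the forward partner did not differ (−0.02). chr4:82156098-82196298_R, 14 kb from Nfib, a nuclear factor I gene, on its strand, read 6.83, 7.05 and 7.32 in ChREBPtotal_WT and 8.04, 8.69 and 9.11 in ChREBPbeta_WT livers. The gap between the groups was wide (−1.56 ± 0.124, adjusted p = 4.0e-09). Its forward partner was lower by 0.45 (adjusted p = 2.2e-05), Nfib by 0.20 (adjusted p = 0.00785) and 2310067E19Rik, 57 kb away, by 0.94 (adjusted p = 1.2e-07). chr1:85304494-85305390_R read 5.83, 6.24 and 6.86 against 7.17, 7.70 and 8.24, without overlap (−1.41 ± 0.139, adjusted p = 1.2e-07), and a second probe 198 bases away was lower by 1.16 (adjusted p = 1.2e-05).

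chr19:36699712-36763966_R, 4.5 kb from Hectd2, a ubiquitin ligase gene on the other strand, read 7.08, 8.92 and 9.23 in ChREBPtotal_WT and 9.32, 9.91 and 10.56 in ChREBPbeta_WT livers. The groups came close without crossing (−1.37 ± 0.248, adjusted p = 2.8e-04), and Hectd2 was higher by 0.36 (adjusted p = 0.00727). chr10:92547995-92556102_F was well above background on no array of either total group and was kept through the β line, so no test is given. It read 4.07, 4.33 and 4.59 in ChREBPtotal_WT and 4.87, 5.47 and 7.25 in ChREBPbeta_WT livers. No arrays crossed, and ChREBPtotal_WT was lower (−1.29; −3.77 on processed signal, −0.63 with normexp correction, and −0.89 within scan day 2). Cdk17, a kinase gene 69 kb away, did not differ.

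In the other direction, chr6:31007184-31007725_R, 52 kb from 5330406M23Rik on the same strand, read 8.51, 9.14 and 9.88 in ChREBPtotal_WT and 7.15, 7.75 and 8.07 in ChREBPbeta_WT livers. All of the first were higher, by 1.39 ± 0.208 (adjusted p = 2.7e-05). In ChREBPtotal_KO livers (7.36, 7.75 and 8.80) it was −1.12 (adjusted p = 1.7e-04) from its wild types, with overlap. chr1:74084292-74138492_R, 62 kb from Tns1, a focal adhesion gene, read 8.12, 8.91 and 9.12 against 7.18, 7.54 and 7.90. The groups did not overlap (+1.24 ± 0.198, adjusted p = 6.5e-05), with no call within scan day 2 (+1.07, adjusted p = 0.0523). chr16:7947710-7948066_R was higher in ChREBPtotal_WT livers by 1.14 ± 0.116 (adjusted p = 1.6e-07), or 0.60 with normexp correction, and no array crossed. chr8:91471819-91551119_R, 2.7 kb from Sall1, a zinc finger factor gene, on its strand, read 5.97, 6.31 and 6.95 against 5.17, 5.61 and 5.96. The lowest ChREBPtotal_WT value was just above the highest of the other group (+0.84 ± 0.213, adjusted p = 0.00656; 0.51 with normexp correction), and the call was lost without ChREBPtotal_WT replicates 2, 7 and 8 (+0.60, adjusted p = 0.0955), within scan day 2 (+0.88) and with a term for each slide (+0.87, adjusted p = 0.0944). Sall1 did not differ between the wild types (+0.09). Over the 5 higher probes of the offset the value was 0.87 to 1.66 with a term for slide, 0.80 to 1.42 within scan day 1 and 0.85 to 1.37 within scan day 2. Over the 5 lower, less the probe near Cdk17 given with no test, it was −1.83 to −1.40, −2.26 to −1.25 and −1.58 to −1.16.

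chr5:35975265-35982561_F read 11.09, 11.41 and 11.78 in ChREBPtotal_WT and 10.09, 10.41 and 11.03 in ChREBPbeta_WT livers, without overlap (+0.99 ± 0.126, adjusted p = 2.8e-06). Its reverse partner, which shares 34 bases on the other strand, read 13.29, 13.57 and 13.77 and 13.77, 13.93 and 14.09. Here ChREBPtotal_WT was lower by 0.39 (adjusted p = 1.3e-04), the groups only touching at their ends. The pair also went opposite ways in ChREBPtotal_KO livers, the forward probe by −0.57 (adjusted p = 0.00115) and the reverse probe by 0.30 (adjusted p = 0.00101). Both comparisons use the same ChREBPtotal_WT livers, so they are not independent results. Htra3, a serine protease gene 18 kb away, did not differ between the wild types, and of 4 probes of Acox3, a peroxisomal oxidase gene 21 kb away, 1 was lower (−0.20, adjusted p = 0.0426). The sequences of this pair, called in opposite directions in both comparisons, are given with the shared bases in capitals (chr5:35976912-35976971, plus strand, and chr5:35976938-35976997, minus strand, mm9).
chr5:35975265-35982561_F: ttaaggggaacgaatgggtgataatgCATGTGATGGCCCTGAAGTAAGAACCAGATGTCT
chr5:35975265-35982561_R: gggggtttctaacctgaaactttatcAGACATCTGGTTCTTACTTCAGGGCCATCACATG

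With the probe of highest signal taken on each strand, opposite strands of a region formed 388 pairs. In ChREBPtotal_KO livers both were called in the same direction in 13, in opposite directions in 1, only 1 probe was called in 102 and none in 272 (r = 0.19 across pairs). The 2 probes of highest signal of the same region and strand formed 146 pairs, with 15, 1, 34 and 96 (r = 0.31). For the wild-type offset the counts were 6, 1, 80 and 301 (r = 0.11) and 15, 2, 26 and 103 (r = 0.55). The 2 kinds of pairs share probes and are not independent points. Other choices of probe within a region could differ: chr7:111526943-111545093_F fell on 1 probe (−0.44, adjusted p = 4.4e-04) and rose on the other (+0.74, adjusted p = 0.00283), and its reverse partner fell (−0.41, adjusted p = 6.7e-04). Of the names with at least 3 probes, chr6:116123643-116124550_F had all 3 higher in ChREBPtotal_KO livers (+0.25, +0.27 and +0.25, adjusted p of 0.0081 to 0.013). Of the 4 probes of chr12:45415565-45423519_F none was called in ChREBPtotal_KO livers (0.04 to 0.12), and 2 were lower in ChREBPtotal_WT than in ChREBPbeta_WT livers (−0.26 and −0.24). chr14:22267795-22319045_F had 1 of 3 lower in ChREBPtotal_KO livers (−0.14, adjusted p = 0.0426), and chr5:96591892-96606467_F and chr17:46972160-46997919_F had none called.

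The nearest probe with a gene symbol lay within 500 kb for 2536 of 2540 probes, within 100 kb for 2367 and within 10 kb for 965, at a median of 15934 bases, and 179 probes lay between probes of 1 gene. Within 10 kb on the same strand, 47 position-named probes were higher in ChREBPtotal_KO livers: the gene was higher for 18, lower for 2 and not called for 27, where 16.7% of the 353 genes involved were higher. For 52 lower probes the gene was lower for 10, higher for 5 and not called for 37 (14.5% of these genes were lower). Within 10 kb on the other strand, 17 of 26 higher probes had a higher and 3 a lower gene (22.5% of 289 genes were higher), and 6 of 16 lower probes had a lower and 2 a higher gene (12.5% were lower). From 10 to 100 kb, 20 of 105 higher probes had a higher and 16 a lower gene (15.4% of 612 genes were higher), and 27 of 86 lower probes had a lower and 8 a higher gene (17.0% were lower). At least 20 bases were shared with a probe of a gene symbol by 60 position-named probes and with another position-named probe by 316. Around Mlxipl, the 2 probes within 1 Mb, chr5:136129679-136148860_R (−0.01) and chr5:136150450-136160852_F (+0.08), were not called in ChREBPtotal_KO livers, and of 55 within 20 Mb 8 were higher and 5 lower, near the shares of all probes (14.5% and 14.6%) for the higher and under it for the lower ones.

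Markers of liver and other cell types were read in the same fit, and their part in the results was not tested. Of all probes 14.5% were higher and 14.6% lower in ChREBPtotal_KO livers, and 8.12% and 8.92% between the wild types. The gene of highest signal is named for each list as a description. In ChREBPtotal_KO livers, 3 of 10 kept hepatocyte markers were higher, and 1, Cyp2e1, was lower in ChREBPtotal_WT than in ChREBPbeta_WT livers (Alb with the highest signal, 18.96 on every array; summed signal 21.37 in ChREBPtotal_KO, 21.29 in ChREBPtotal_WT, 21.32 in ChREBPbeta_KO and 21.31 in ChREBPbeta_WT livers, in this order below). Quantile normalization gives the same value to a probe that holds the same rank on every array. The constant Alb is therefore set by the scaling, and it and the hepatocyte sum cannot show whether hepatocyte RNA differed. Of 13 exocrine pancreas markers 6 were kept (Cela1 highest; Prss2, Try4, Try5, Cpa1, Cpb1, Pnlip and Amy2b were not), 3 lower in ChREBPtotal_KO and 3 higher in ChREBPtotal_WT than in ChREBPbeta_WT livers (14.72, 14.58, 14.52, 14.29). ChREBPtotal_WT replicates 2, 7 and 8 stood apart for other markers than Cela3b too: Ctrb1 read 10.09 to 11.94 there and 8.41 to 9.12 in the other ChREBPtotal_WT livers, and Cel 7.76 to 9.33 against 6.04 to 6.34. Cela1 did not stand apart, at 13.88 to 14.43 against 13.91 to 14.59. Of 7 adipocyte markers 6 were kept (Car3 highest, Adipoq not kept), 1 higher in ChREBPtotal_KO livers (17.37, 16.69, 17.27, 16.96). The 1 called was Car3 itself (+0.79, adjusted p = 6.4e-05). Its mean over all arrays was 17.03, against 8.22 or less for the other kept adipocyte markers, none of which was called. The summed signal is therefore almost wholly that of Car3 and is not read as adipocyte RNA. Some spread more within the groups of the total line. Standard deviations, in the same order, were 2.86, 2.89, 1.47 and 1.59 for Cfd, 1.415, 1.20, 0.15 and 0.29 for Retn and 0.82, 0.75, 0.07 and 0.13 for Adig. Plin1, Car3 and Lep did not spread in this way. Of the red blood cell markers reported here, 5 were kept (Hba-a1 highest), 3 higher in ChREBPtotal_WT than in ChREBPbeta_WT livers and 1, Alas2, higher in ChREBPtotal_KO livers (17.15, 17.15, 16.48, 16.20). Kupffer cell (7 of 7, Cd5l highest; 13.47, 13.67, 13.58, 13.75) and lymphocyte markers (6 of 7, Cd3e highest, Cd8a not kept; 10.39, 10.48, 10.37, 10.47) had none called. Endothelial markers (6 of 6, Clec4g highest) had 1 higher in ChREBPtotal_WT than in ChREBPbeta_WT livers, Pecam1 (13.78, 13.75, 13.69, 13.69). Stellate cell markers (6 of 6, Dcn highest) had 2 higher in ChREBPtotal_KO livers (14.56, 14.31, 14.57, 14.40) and cholangiocyte markers (5 of 5, Sox9 highest) 1 (9.41, 9.37, 9.32, 9.38). The cholangiocyte sum ran from 8.875 to 11.86 in ChREBPtotal_KO and from 9.23 to 10.28 in ChREBPtotal_WT livers. Standard deviations in these groups were 1.40 and 0.09 for Cftr, 1.15 and 0.19 for Epcam and 1.28 and 0.51 for Krt19. Krt7 (0.43 and 0.25) and Sox9 (0.51 and 0.46) spread less.

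Of 47 long noncoding RNAs listed by symbol, 35 were on the array and 31 kept, Gas5 with the highest signal (summed signal 15.92, 15.69, 15.85 and 15.80). In ChREBPtotal_KO livers 12 were higher and 5 lower (14.5% and 14.6% of all probes), in ChREBPbeta_KO livers none was called, and between the wild types 4 were higher and 4 lower (8.12% and 8.92% of all probes). Beside Meg3 and Airn, Snhg11 rose by 0.998 (adjusted p = 1.3e-04), Snhg8 by 0.55 (adjusted p = 1.9e-06) and Kcnq1ot1, an imprinted antisense RNA, by 0.41 (adjusted p = 7.7e-06) on the probe of highest signal. Its other 3 probes gave +0.24 (adjusted p = 0.00835), +0.35 (adjusted p = 0.0605) and −0.17 (adjusted p = 0.49). For Snhg11 the low group was ChREBPtotal_WT, under ChREBPbeta_WT by 1.36 (adjusted p = 5.7e-06) on this probe and by 0.93 and 0.99 on the others. The difference of effects was not called on this Snhg11 probe (+0.70, adjusted p = 0.0694) and was called on only 1 other (+0.55, adjusted p = 0.0269). Kcnq1ot1 was also lower in ChREBPtotal_WT than in ChREBPbeta_WT livers, by 0.37 (adjusted p = 7.1e-05). Gm16551 fell by 1.44 (adjusted p = 1.4e-06) and Rpph1, the RNA of ribonuclease P, by 0.59 (adjusted p = 6.2e-04).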

How the data were processed

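Signals of 31 single-color Agilent arrays extracted with Feature Extraction 10.10.1.1 were used. The authors took the median intensity of each spot. Their deposited table holds log2 values after quantile normalization. The same steps were run here: spots were kept where the study's conditions (found, well above background and similar marks) held on 26 or more arrays, or on 6 or more of any 1 group (38721 of 59305 non-control spots), log2 median signal was quantile normalized over the 31 arrays, and repeated spots of a probe were merged by their median. All groups were fitted in a single limma model, with p adjusted by Benjamini-Hochberg over all 36059 probes. Members and lists were chosen with earlier results of these data known.

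Named probes were, for the total knockout, the up to 8 higher and 8 lower called probes of largest log2 difference without overlap of the groups; for the offset between wild types 5 and 5 of the same kind; for the difference of effects 5 and 5 called ones; for the β knockout the 5 smallest p; and the 5 of highest signal. Only 1 probe per region and strand was taken. Nearest genes were searched within 500 kb by the positions of array probes, up to 2 on each side, with the kept probe of highest signal. Lists of 9 cell types and of 47 long noncoding RNAs were read. Some items withheld for evaluation are not reported here.

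Alternatives tried were processed signal and median signal scaled to the 75th percentile, normexp background correction (offset 50), the authors' normalized values, no filter, spots passing on every array, a random or a fixed term for slide, a term for scan day, each scan day alone, replicate number as a block, separate fits, trend and robust empirical Bayes, a 1.5-fold threshold, exact Mann-Whitney tests, 1 probe per region, leaving out each array, and leaving out the 3 livers with exocrine markers. Mlxipl was called the same way in 4 other scalings. R 4.3.3, limma 3.58.1, the data.table package (1.17.8), Python 3.11.15, pandas 2.3.3 and numpy 2.4.6 were used.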

Additional observations from a re-analysis of the deposited data

Results flagged for a closer look

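In 18 of 160 groups of the probes named above, 1 array stood apart from the others of its group. The rule marks about 1 in 20 groups of independent, normally distributed values. These 160 groups reuse the same 31 arrays, and chr11:96111499-96126224_R and chr3:95502970-95503399_R correlated at 0.98 over the arrays. The 18 are therefore a description and are not set against that rate. Log2 values were as follows. In ChREBPtotal_KO livers, replicate 7 was low for chr6:35201798-35217831_R (9.006), chr11:96111499-96126224_R (8.686) and chr3:95502970-95503399_R (6.997) and high for chr17:17481706-17482457_R (16.87). Replicate 6 was high for chr17:56687541-56694616_R (7.088), and replicate 8 was low for chr4:82156098-82196298_R (6.787) and high for chr4:140841206-140841639_F (5.214). In ChREBPtotal_WT livers, replicate 6 was low for chr11:96111499-96126224_R (7.293) and chr3:95502970-95503399_R (5.421) and high for chr12:73838608-73862621_R (17.17). Replicate 5 was high for chr14:62294849-62301165_R (9.171) and low for chr7:16584852-16657252_R (7.199). In ChREBPbeta_KO livers, replicate 5 was low for chr1:71939741-71947891_F (9.767), chr11:96111499-96126224_R (8.267) and chr3:95502970-95503399_R (6.698). In ChREBPbeta_WT livers, replicate 5 was high for chr14:26834450-26847000_R (10.65), replicate 6 low for chr19:57426515-57435165_R (7.433) and replicate 2 high for chr17:17481706-17482457_R (16.88).

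The effect of the total knockout differed from that of the β knockout for 24 of the 40 probes named above. Most of the 40 had been chosen on this difference or on the size of the total knockout effect, so the count follows from the choice (7.02% of all probes were higher and 8.08% lower). The probes chr9:68349343-68411643_F and chr6:108556270-108573161_R were kept through groups in which they were high, and their values are not support. The difference was positive for chr14:62294849-62301165_R (0.78), chr14:62280837-62283960_R (0.72), chr14:55671783-55680316_R (0.88), chr9:68349343-68411643_F (0.69), chr6:35201798-35217831_R (0.73), chr5:137392195-137426421_F (0.79), chr17:56687541-56694616_R (0.54), chr11:96111499-96126224_R (1.53), chr3:95502970-95503399_R (1.48), chr1:85323303-85337483_F (1.20), chr19:57426515-57435165_R (0.99) and chr14:73746324-73749119_R (0.98). It was negative for chr8:72663625-72673010_R (−1.63), chr6:108556270-108573161_R (−1.52), chr5:152006587-152008784_R (−1.54), chr1:71939741-71947891_F (−1.30), chr13:98513868-98517366_R (−1.47), chr14:26834450-26847000_R (−1.62), chr16:7947710-7948066_R (−1.53), chr5:152029557-152030218_R (−1.22), chr7:16584852-16657252_R (−1.63), chr6:31007184-31007725_R (−0.91), chr1:74084292-74138492_R (−0.93) and chr14:103746051-103840199_F (−0.59).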

How the results depend on the processing

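Counts are higher and lower probes. With only spots passing on every array (1037 position-named probes), the total knockout gave 123 and 90, the difference of effects 67 and 46 and the offset between wild types 51 and 105. Over all 19620 probes of that setting these were 3519 and 3406, 1859 and 2001, and 1888 and 2024. Slide as a fixed block left 26 higher in the offset (829 over all probes). Requiring a 1.5-fold change left 32 and 38 for the total knockout, 30 and 40 for the difference and 19 and 40 for the offset. The exact Mann-Whitney test gave 58 and 83 unadjusted for the β knockout, and for the offset 253 and 361 unadjusted and 65 and 186 adjusted. Over all probes it gave 1056 and 1155 unadjusted for the β knockout, and for the offset 5009 and 5026 unadjusted and 1676 and 2060 adjusted. Processed signal gave 1 lower for the β knockout (2 over all probes), and median signal scaled to the 75th percentile 135 lower for the total knockout (4693 over all probes). Within scan day 1 the total knockout gave 121 and 118, the difference 23 and 29 and the offset 39 and 96. Within scan day 2 these were 89 and 83, 29 and 35, and 31 and 92. The counts over all probes within each scan day are given with the results above. Leaving out each of 31 arrays gave 196 to 243 and 176 to 211 for the total knockout, 0 and 0 for the β knockout, 87 to 132 and 87 to 112 for the difference and 89 to 145 and 203 to 264 for the offset. Lower probes outnumbered higher ones, against the result reported, for the total knockout at 1.5-fold, without the filter (207 and 208) and without ChREBPtotal_WT replicates 2, 7 and 8 (174 and 186), and for the difference at 1.5-fold and within each scan day. Over all probes of the array lower calls outnumbered higher ones in each of these settings, and also in the fit reported.

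Arrays of the same replicate number correlated above 0.1 for 6 of 8 numbers in the β line, 2 of 7 in the total line and 2 of 8 between the wild types. The best match was the array of the same number for 4 of 8, 1 of 7 and 2 of 8 arrays. A pairing by number is therefore not excluded in the β line. With replicate number as a block the counts were 238 and 209 (total knockout), 0 and 0 (β knockout), 117 and 102 (difference), and 137 and 256 (offset). Over all probes these were 5251 and 5298, 0 and 0, 2661 and 3024, and 3108 and 3387.

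Each group had 7 or 8 livers of 1 sex at 1 time after refeeding. The array reads 60-base probes, so the extent, splicing and strand ends of the RNAs are not known. Values of dim probes depend on background handling. Groups were spread over 15 slides and 2 scan days.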

Other observations

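These descriptions were chosen after the values were seen. Position-named probes no more than 100 kb apart formed 1224 runs, 648 of them with more than 1 probe. In ChREBPtotal_KO livers 22 runs held at least 3 called probes, 6 all higher, 8 all lower and 8 in both directions (14.5% of all probes were higher and 14.6% lower). Between the wild types of the 2 lines there were 16, with 4 all higher, 10 all lower and 2 in both directions (8.12% of all probes were higher and 8.92% lower). No count of such runs among the other probes is given, so these numbers are a description.

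From chr13:74569878 to 74748771, near LOC102632416, 5 of 7 probes were lower in ChREBPtotal_KO livers (14.6% of all probes were lower). They were led by chr13:74568375-74601000_R (−0.74, adjusted p = 2.2e-08) and chr13:74642700-74701900_R (−0.60, adjusted p = 5.4e-07). Between chr5:22890069 and 22930049, near 5031425E22Rik, 2 of 5 probes fell (−0.92 and −1.03) and 2 rose (+0.44 and +0.36), where 14.6% of all probes were lower and 14.5% higher. In ChREBPtotal_WT against ChREBPbeta_WT livers, 5 of 5 probes from chr4:131737613 to 131742451 were higher, by 0.24 to 0.60 (8.12% of all probes were higher). They lie beside Ythdf2, which codes for a reader of methylated RNA. From chr17:46989585 to 47022875, near Tbcc, a tubulin cofactor gene, 4 of 9 were lower, by 0.28 to 0.63 (8.92% of all probes were lower). From chr2:75481125 to 75496683, near Hnrnpa3, an RNA-binding protein gene, 4 of 5 were lower, by 0.23 to 0.53 (against the same 8.92% of all probes).

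Large offsets between the wild types with overlapping groups were seen for chr10:96098058-96098623_F (+1.32, adjusted p = 1.9e-04) and chr6:129151512-129208737_R (−1.26, adjusted p = 3.6e-04). On chromosome 1, chr1:85117750-85129200_R was lower in ChREBPtotal_WT livers by 0.95 (adjusted p = 3.6e-05).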
